A study of Mus musculus with 16 samples.

Results

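Endothelial leukocyte adhesion molecules are surface proteins that capture leukocytes from flowing blood and guide them through the vessel wall. The 9 genes described here were chosen by name: the selectins Sele and Selp, the immunoglobulin-family molecules Icam1, Icam2, Vcam1, Pecam1 and Mcam, the chemokine-binding receptor Ackr1 and the sialomucin Cd34. All 9 were among the 55487 genes measured by RNA-Seq in mouse cerebral cortex. Wild-type C57Bl6 male mice, 2 months old, received i.p. lipopolysaccharide (LPS, a bacterial cell wall component that triggers inflammation) at 2 mg/kg, or PBS, on 2 consecutive days, at zeitgeber time (ZT) 1, shortly after lights on, or at ZT13, shortly after lights off. Cortex was taken on the day after the last dose, so time of injection and time of harvest cannot be told apart. There were 3 PBS and 5 LPS mice at each time, 16 in all, and no group carried a transgene or a deletion. LPS given i.p. reaches many organs, and whole cortex mixes vessels with neurons, glia and blood cells. A change in the number of vessel cells and a change in RNA per vessel cell therefore cannot be told apart.

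In the usual order of events, selectins on the endothelium let leukocytes tether and roll, chemokines held on the vessel surface activate leukocyte integrins, and ICAM1 and VCAM1 then bind those integrins to arrest the cell. PECAM1 and other junction proteins act during passage between endothelial cells. Resting brain endothelium carries little of the selectins, whereas inflammatory cytokines switch on E-selectin, P-selectin, ICAM1 and VCAM1 through transcription factors such as NF-kappaB and AP-1.

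LPS raised 8 of the 9 genes at ZT1 and the same number at ZT13, and Mcam was the exception at both times. The largest log2 differences, on a scale that understates changes of low genes such as Sele, were in Selp and Icam1. Mean Icam1 was 9.57-fold higher than in PBS mice at ZT1 and 16.3-fold higher at ZT13. In the main fit all 9 genes had the more positive LPS-minus-PBS log2 difference at ZT13. Other fits with the same groups turned that order for Sele, Vcam1, Ackr1 and Cd34. For Pecam1 the difference between the times, the TOD (time of day) × treatment interaction, passed the test. The LPS groups at the 2 times differed less clearly: no gene of the 9 passed the adjusted test between ZT13 LPS and ZT1 LPS mice.

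Values are read counts scaled to 1000000 reads on genes per library (CPM), and libraries held 20251840 to 29112758 such reads. Differences are log2 differences of CPM + 0.5, and a gene was called when its Benjamini-Hochberg adjusted p from limma, over 18859 genes tested, was under 0.05. As a check of the labels, Gfap, an astrocyte gene that rises in inflamed brain, lay between 110.5 and 122.8 CPM in PBS mice and 572 and 945 CPM in LPS mice at ZT1, and between 112.8 and 120.3 CPM and 791 and 1134 CPM at ZT13. The brain endothelial markers Cldn5 and Cdh5 were measured in all mice, and the 15 endothelial markers summed to at least 273 CPM in each. Choroid plexus markers ranged from 14.2 to 975 CPM among mice of all groups, and limma had 0 of 6 called, also 0 at an unadjusted p under 0.05, in every comparison as fitted here. At ZT13 they were called lower in 3 of 6 without PBS replicate 2, and in 5 relative to endothelial markers. On that scale 15691 of all 18859 genes were called lower at ZT13. Their part in the results below was not tested.

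**Figure D1:**
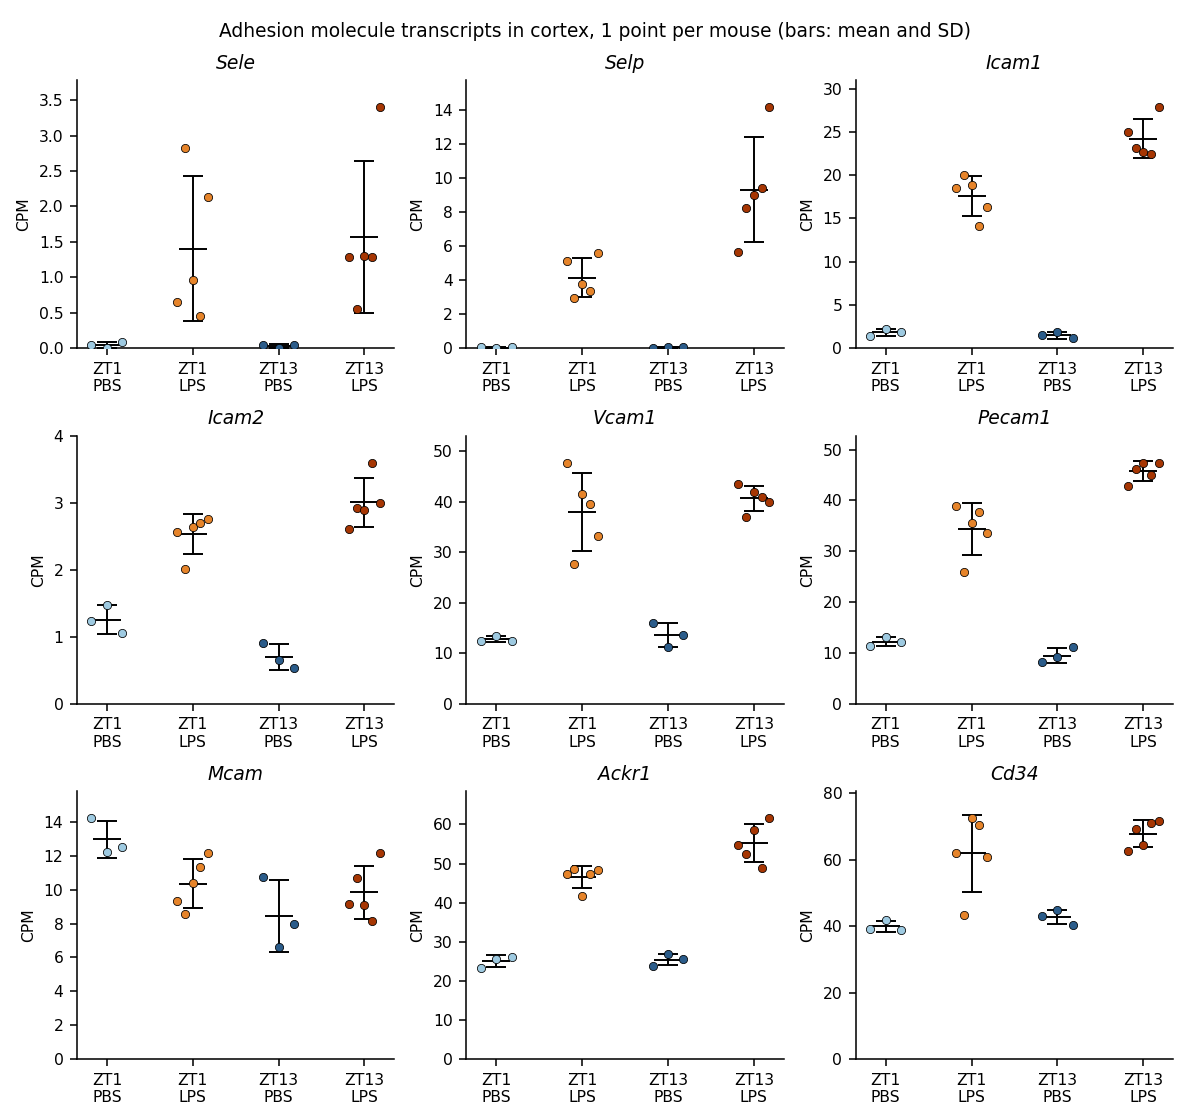
CPM (linear axes from 0) of each of the 9 genes in every mouse, with the mean and SD of the 4 groups. LPS mice lie above PBS mice for 8 genes at both times, and Mcam lies lower in ZT1 LPS mice, while its ZT13 groups overlap.

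The selectins share a region of chromosome 1. In GRCm38, Sele lies on the plus strand at chr1:164048234-164057677 and Selp at chr1:164115264-164150026, and their starts are 67030 bases apart. Since these genes went from undetected to measured together, the 250 bases before each start are shown (RefSeq promoters, GRCm38.p6, plus strand, chr1:164047984-164048233 and chr1:164115014-164115263), with matches to an AP-1 motif, TGANTCA on either strand, in capitals.

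Sele upstream window: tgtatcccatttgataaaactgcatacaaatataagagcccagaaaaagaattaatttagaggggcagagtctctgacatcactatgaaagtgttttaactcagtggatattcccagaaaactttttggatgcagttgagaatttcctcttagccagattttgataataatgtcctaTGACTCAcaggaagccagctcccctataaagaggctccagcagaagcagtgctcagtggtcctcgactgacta

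Selp upstream window: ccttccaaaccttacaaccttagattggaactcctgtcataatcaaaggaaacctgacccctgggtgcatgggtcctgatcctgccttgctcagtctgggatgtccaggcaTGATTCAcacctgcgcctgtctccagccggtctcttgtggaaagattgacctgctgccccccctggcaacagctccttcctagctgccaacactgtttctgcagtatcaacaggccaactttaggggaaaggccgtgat

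The match lay 73 to 67 bases before the Sele start and 139 to 133 bases before the Selp start. AP-1 matches were in 6.75% of the 32851 RefSeq mouse promoters of the same length, and in these 2 of the 6 adhesion genes with a promoter in that set (Sele, Selp, Icam1, Mcam, Ackr1 and Cd34). The kappaB consensus was taken as GGGRNWYYCC (3.90% of promoters), where R is A or G, W is A or T, Y is C or T and N is any base. There was no match in the 6 windows to that consensus, to the interferon response element core or to the E-box CACGTG (6.02%). That core is GAAA and GAAA with any 2 bases between (2.98%), and the E-box is the sequence bound by the clock factors CLOCK and BMAL1. Sites that depart from these letters were not searched for, so these windows may still hold variant kappaB sites. The motifs do not overlap one another in these windows, and a match is a description of letters, not evidence of binding.

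Selp, which encodes the P-selectin that endothelial cells and platelets expose to leukocytes, was undetected without LPS. At ZT1 it was at 0.0493, 0 and 0.0421 CPM in PBS mice, at most 1 read in a library, and at 5.13, 2.94, 3.74, 3.35 and 5.56 CPM in LPS mice. At ZT13 it was at 0, 0.0463 and 0.0896 CPM in PBS mice and 5.66, 8.23, 9.01, 9.38 and 14.2 CPM in LPS mice. Every LPS mouse was above every PBS mouse, and every ZT13 LPS mouse was above every ZT1 LPS mouse. Set against 3 reads per PBS library, mean Selp was at least 29.4-fold higher at ZT1 and at least 72.0-fold higher at ZT13. Its log2 difference was 3.10 ± 0.20 (SE; limma adjusted p = 2.4e-06) at ZT1 and 4.11 ± 0.21 (adjusted p = 7.7e-09) at ZT13. Because PBS mice lay under the filter on low values, Selp and Sele entered the test only through the LPS groups.

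Platelets also carry Selp RNA, so their markers bear on it. The 7 platelet markers summed to between 3.63 and 5.94 CPM in all 16 mice, 4.43 to 5.32 CPM in ZT1 PBS and 3.63 to 5.06 CPM in ZT1 LPS mice, 3.88 to 4.11 CPM in ZT13 PBS and 4.28 to 5.94 CPM in ZT13 LPS mice. The defining markers Pf4 and Ppbp were at most 1.17 and 0.187 CPM, and Ppbp was at 0 in 11 libraries. The sum was higher in every ZT13 LPS mouse than in every ZT13 PBS mouse. Of the 2 platelet markers that could be tested, limma called 0 at ZT1, also 0 at an unadjusted p under 0.05, and 1 was called higher at ZT13, with median log2 differences of -0.03 and 0.37. The ZT13 call was lost without PBS replicate 2 or 3, without the filter on low values, at 5 CPM and after quantile normalization.

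Sele encodes E-selectin, which is made by activated endothelium. It was at 0.0493, 0 and 0.0842 CPM in ZT1 PBS mice and 0.653, 2.82, 0.962, 0.455 and 2.13 CPM in ZT1 LPS mice. At ZT13 it was at 0.0380, 0 and 0.0448 CPM in PBS mice and 1.28, 0.559, 1.30, 1.29 and 3.40 CPM in LPS mice. The LPS mice spread widely, with replicate 5 of the ZT13 LPS group alone far above the others, but none overlapped the PBS mice. The mean was at least 9.97-fold higher at ZT1 and at least 12.1-fold higher at ZT13. The log2 difference was 1.64 ± 0.37 (adjusted p = 0.011) and 1.84 ± 0.31 (adjusted p = 5.0e-04). Without the filter on low values or after quantile normalization, the ZT1 call was lost (adjusted p = 0.098 and 0.10).

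Icam1 encodes the ligand of the leukocyte integrins LFA-1 and Mac-1 and lies at chr9:21015985-21028817 on the plus strand. It was at 1.42, 2.18 and 1.90 CPM in ZT1 PBS mice and 18.6, 20.03, 18.8, 14.1 and 16.4 CPM in ZT1 LPS mice. At ZT13 it was at 1.48, 1.86 and 1.12 CPM in PBS mice and 24.9, 23.1, 22.7, 22.5 and 27.9 CPM in LPS mice. The LPS groups stood well clear of PBS, and the lowest ZT13 LPS mouse was above the highest ZT1 LPS mouse. The log2 difference was 2.95 ± 0.14 (adjusted p = 2.6e-07) at ZT1 and 3.65 ± 0.12 (adjusted p = 9.8e-11) at ZT13. Icam1 shares 511 of its 4360 exon bases (11.7%) with the antisense gene Gm47079, which was at 3.36 to 5.28 CPM and was not called. Whether counting used strand is not given in the sources used here.

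Vcam1, which encodes the ligand of integrin alpha4 beta1, lies at chr3:116109949-116129688 on the minus strand. It was at 12.5, 13.4 and 12.5 CPM in ZT1 PBS mice and 47.8, 27.6, 41.5, 39.6 and 33.2 CPM in ZT1 LPS mice. The ZT13 values were 16.1, 11.2 and 13.7 CPM in PBS mice and 43.6, 37.0, 41.9, 41.0 and 39.9 CPM in LPS mice. Vcam1 was clearly higher after LPS, with similar folds at both times. The fold was 2.96 at ZT1 (log2 difference 1.51 ± 0.14, adjusted p = 3.8e-05) and 2.98 at ZT13 (1.55 ± 0.09, adjusted p = 2.6e-08). The difference between those log2 differences was 0.05, with a 95% interval from -0.34 to 0.44, so shifts of those sizes remain within it.

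Icam2, the ICAM that endothelium makes without stimulation, lies at chr11:106377656-106388075 on the minus strand. It was at 1.23, 1.48 and 1.05 CPM in ZT1 PBS mice and 2.57, 2.01, 2.64, 2.70 and 2.76 CPM in ZT1 LPS mice. It was at 0.911, 0.648 and 0.538 CPM in ZT13 PBS mice and 2.61, 2.92, 2.89, 3.60 and 3 CPM in ZT13 LPS mice. The groups did not overlap at either time, and the ZT13 PBS mice lay below the ZT1 PBS mice. The log2 difference was 0.79 ± 0.14 (adjusted p = 0.0036) at ZT1 and 1.55 ± 0.15 (adjusted p = 3.4e-06) at ZT13.

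Pecam1 encodes the junctional protein that leukocytes and endothelial cells engage during passage across the wall. The gene lies at chr11:106654217-106750628 on the minus strand. It was at 11.4, 13.1 and 12.1 CPM in ZT1 PBS mice and 38.9, 26.0, 35.6, 37.7 and 33.6 CPM in ZT1 LPS mice. At ZT13 it was at 8.12, 9.20 and 11.1 CPM in PBS mice and 42.9, 46.2, 47.4, 45.0 and 47.4 CPM in LPS mice. The ZT13 groups were farther apart at both ends: PBS mice were lower and LPS mice higher than their ZT1 counterparts, without overlap. The fold was 2.81 at ZT1 (log2 difference 1.44 ± 0.11, adjusted p = 1.1e-05) and 4.84 at ZT13 (2.23 ± 0.08, adjusted p = 3.05e-10).

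Mcam (CD146), found on endothelium and pericytes, lies at chr9:44134469-44142727 on the plus strand and was not raised. It was at 14.2, 12.2 and 12.5 CPM in ZT1 PBS mice and 9.33, 8.55, 10.4, 11.3 and 12.1 CPM in ZT1 LPS mice. At ZT13 it was at 10.7, 6.61 and 7.97 CPM in PBS mice and 9.17, 10.7, 9.10, 8.15 and 12.1 CPM in LPS mice. At ZT1 all LPS mice lay below all PBS mice, while the ZT13 groups overlapped. The log2 difference was -0.32 ± 0.11 (95% interval -0.57 to -0.07, adjusted p = 0.078) at ZT1 and 0.22 ± 0.15 (-0.09 to 0.54, adjusted p = 0.30) at ZT13. Quantile normalization brought the ZT1 difference past the threshold, with a log2 difference of -0.42 (adjusted p = 0.034), and so did leaving out ZT1 LPS replicate 5, at -0.38 (adjusted p = 0.030). The 10 mural markers, which include pericyte genes, summed to 195 to 217 CPM in ZT1 PBS mice, 166 to 215 CPM in ZT1 LPS mice, 180 to 198 CPM in ZT13 PBS mice and 187 to 222 CPM in ZT13 LPS mice.

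Ackr1 encodes the Duffy antigen receptor, which binds inflammatory chemokines on venules and erythroid cells without signalling through G proteins. It lies at chr1:173331886-173333750 on the minus strand. It was at 23.4, 25.6 and 26.2 CPM in ZT1 PBS mice and 47.4, 48.5, 41.7, 47.2 and 48.3 CPM in ZT1 LPS mice. At ZT13 it was at 23.9, 26.8 and 25.7 CPM in PBS mice and 54.6, 52.6, 58.5, 48.9 and 61.6 CPM in LPS mice. The ranges of the 4 groups touched only between the PBS groups. The log2 difference was 0.88 ± 0.06 (1.86-fold, adjusted p = 6.1e-06) at ZT1 and 1.10 ± 0.07 (2.17-fold, adjusted p = 5.2e-08) at ZT13.

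A gene on the same strand limits how the Ackr1 level can be read. Ackr1 shares 361 of its 1405 exon bases (25.7%) with Cadm3, a neuronal adhesion gene at 471 to 542 CPM in every mouse. Cadm3 differed the other way, with log2 differences of -0.10 ± 0.04 (adjusted p = 0.075) at ZT1 and -0.12 ± 0.03 (adjusted p = 0.0067) at ZT13. How reads in the shared bases were counted was not tested. The 5 erythrocyte markers summed to 6.16 to 35.8 CPM over the LPS mice and 9.39 to 19.9 CPM over the PBS mice, and limma called 0 of them at either time, also 0 at an unadjusted p under 0.05.

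Cd34 encodes a sialomucin of endothelium and of blood progenitors. The gene lies at chr1:194938819-194961279 on the plus strand. It was at 39.1, 41.9 and 39.0 CPM in ZT1 PBS mice and 62.1, 43.6, 72.5, 70.6 and 61.0 CPM in ZT1 LPS mice. The ZT13 values were 43.2, 44.8 and 40.5 CPM in PBS mice and 62.8, 69.3, 64.5, 71.2 and 71.8 CPM in LPS mice. Groups did not overlap at either time, though ZT1 LPS replicate 2 lay close to the PBS mice. The log2 difference was 0.60 ± 0.13 (adjusted p = 0.010) at ZT1 and 0.66 ± 0.05 (adjusted p = 7.2e-07) at ZT13. At ZT1 the call did not hold without PBS replicate 1 (adjusted p = 0.0501) or PBS replicate 3 (adjusted p = 0.052), nor without the filter on low values (adjusted p = 0.10).

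**Figure D2:**
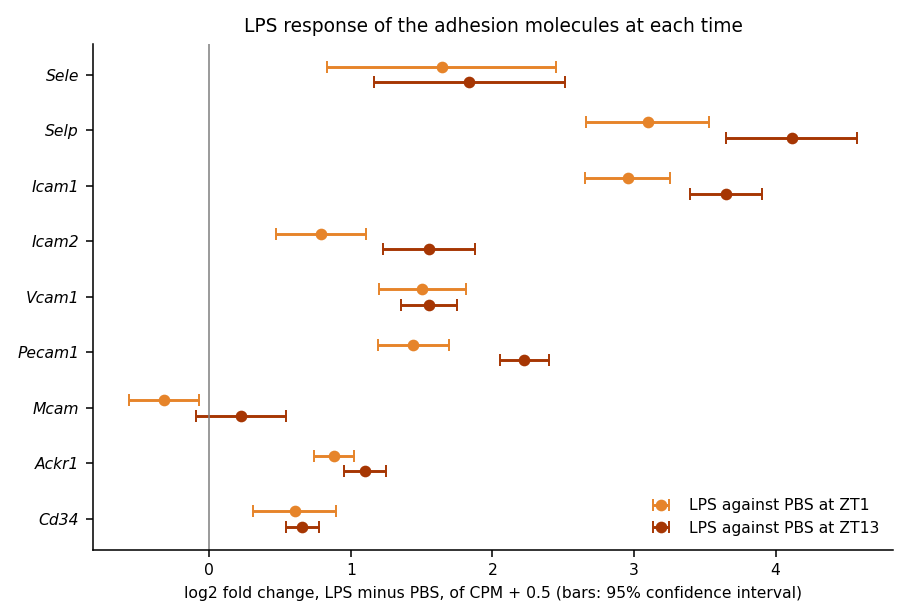
Log2 difference between LPS and PBS mice, on CPM + 0.5, for each gene at ZT1 and ZT13, with 95% confidence intervals. All 9 points are farther to the right at ZT13; 8 intervals lie above 0 at each time and that of Mcam lies below 0 at ZT1 and spans 0 at ZT13.

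Counted together, 8 of the 9 were called higher at ZT1, against 11.1% of all genes tested, and 8 of the 9 at ZT13, against 19.2%. These counts include Sele and Selp, which entered the test only through the LPS groups. The 9 were also chosen with earlier results of these data known, so the counts in this paragraph describe them and are not independent support. The LPS mice lay wholly above the PBS mice for 8 genes at each time, against 15.9% and 20.9% of all genes. With Mcam, which was wholly lower at ZT1, the groups were apart for all 9 there, against 24.3% of genes in either direction. The median log2 difference of the 9 was 1.44 at ZT1 and 1.55 at ZT13, while that of all genes was 0.04 and 0.05. For single genes the exact permutation test, two-sided over 3 and 5 mice, gave 0.036, the smallest p the design allows, for all 9 genes at ZT1 and for the 8 at ZT13. The p-values measure the spread between these mice, which the titles number but no label ties to separate cages or litters.

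Levels between genes can be compared only per kilobase of exon. In ZT1 PBS mice the order ran from Ackr1 at 17.8 ± 1.07 CPM per kilobase (SD, n = 3) through Cd34 at 5.49 ± 0.23, Mcam at 3.87 ± 0.32, Pecam1 at 1.96 ± 0.14, Vcam1 at 1.45 ± 0.06 and Icam2 at 0.659 ± 0.11 to Icam1 at 0.421 ± 0.088 CPM per kilobase. No neighbours in that order overlapped within 1 SD, and the selectins were undetected. In ZT13 LPS mice (n = 5) Icam1 had passed Vcam1, Mcam and Icam2, at 5.55 ± 0.52 against 4.59 ± 0.28, 2.94 ± 0.47 and 1.58 ± 0.19 CPM per kilobase. There Selp, at 2.10 ± 0.70 CPM per kilobase, could not be told from Mcam or Icam2 within 1 SD, and Sele was lowest at 0.538 ± 0.37. The Ackr1 figure carries the overlap with Cadm3.

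The time of day question was first asked among LPS mice alone. Between ZT13 LPS and ZT1 LPS mice, 0 of the 9 passed limma's adjusted test, and 4 of 18859 genes did (0.0212%). At an unadjusted p under 0.05 there were 4, all higher at ZT13, against 7.67% of all genes. These were Selp (log2 difference 1.05 ± 0.21, adjusted p = 0.088), Icam1 (0.46 ± 0.09, adjusted p = 0.088), Pecam1 (0.42 ± 0.09, adjusted p = 0.099) and Ackr1 (0.24 ± 0.06, adjusted p = 0.18). For each, all 5 ZT13 LPS mice lay above all 5 ZT1 LPS mice (exact permutation p = 0.0079, the smallest for 5 against 5), an arrangement seen upward in 1.55% of all genes.

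In the other 5 genes the LPS groups overlapped. Their log2 differences, ZT13 minus ZT1, were 0.15 for Sele, 0.21 for Icam2, 0.12 for Vcam1, -0.07 for Mcam and 0.15 for Cd34. The intervals reached from -0.64 to 0.95 for Sele and from -0.12 to 0.37 for Vcam1, so differences of those sizes remain within them. For Icam2 the interval was -0.03 to 0.45, and 4 ZT13 LPS mice lay above all ZT1 LPS mice (exact permutation p = 0.032). With sample weights in limma, Selp, Icam1 and Pecam1 were called (adjusted p = 0.021, 0.027 and 0.022), and the same 3 were called without ZT1 LPS replicate 1 (adjusted p = 0.024, 0.031 and 0.023). A single fit of all mice called Selp and Pecam1 (adjusted p = 0.029 and 0.044), and without ZT1 LPS replicate 2 only Pecam1 was called (adjusted p = 0.040). More genes were called in general under these settings. Of all 18859 genes, limma called 225 with sample weights and 122 in the single fit. It called 345 without ZT1 LPS replicate 1 and 20 without ZT1 LPS replicate 2.

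Among PBS mice, 0 of the 9 passed between ZT13 and ZT1, against 0.52% of all genes. At an unadjusted p under 0.05 limma had 3, against 13.5% of all genes, and all were lower at ZT13: Mcam (log2 difference -0.61 ± 0.15, adjusted p = 0.13), Icam2 (-0.56 ± 0.18, adjusted p = 0.23) and Pecam1 (-0.36 ± 0.11, adjusted p = 0.23). Their groups did not overlap, which was so in 18.7% of all genes, and with 3 mice each the exact test cannot go below 0.10. Without ZT13 PBS replicate 1 the Mcam difference was -0.79 (adjusted p = 0.046).

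The TOD × treatment interaction asks whether the LPS response itself differed between the times. It was positive for all 9 genes and was called for 1 of them, Pecam1, against 0.159% of all genes tested. The share of all genes with a positive value is not given here. Leaving out 1 mouse took the value as low as -0.07 for Sele, -0.08 for Vcam1 and -0.07 for Cd34. Other settings with the same groups took Vcam1 and Cd34 to -0.18 and Ackr1 to -0.01. The Pecam1 response was 0.78 larger on the log2 scale at ZT13 (SE 0.15, 95% interval 0.47 to 1.10, limma adjusted p = 0.041). That value is made of a ZT13 minus ZT1 difference of -0.36 in PBS mice and 0.42 in LPS mice, so both treatments contributed to it.

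At an unadjusted p under 0.05 the interaction held for 6 of the 9, against 5.93% of all genes upward. Besides Pecam1 these were Selp (1.02 ± 0.31, adjusted p = 0.26), Icam1 (0.70 ± 0.19, adjusted p = 0.20), Icam2 (0.76 ± 0.20, adjusted p = 0.17), Mcam (0.54 ± 0.20, adjusted p = 0.39) and Ackr1 (0.22 ± 0.10, adjusted p = 0.51). In Selp, Icam1 and Ackr1 most of the interaction came from the LPS mice, with differences between times of 1.05, 0.46 and 0.24 against 0.04, -0.24 and 0.02 in PBS mice. In Icam2 and Mcam most came from the PBS mice, at -0.56 and -0.61 against 0.21 and -0.07 in LPS mice. Sele (0.19, interval -0.92 to 1.31), Vcam1 (0.05) and Cd34 (0.05, interval -0.28 to 0.38) had no detectable interaction. The median over the 9 was 0.54, and that over all genes 0.01.

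The Pecam1 call was close to the threshold. Leaving out mice 1 at a time, it passed in 5 of 16 fits (without ZT1 LPS replicate 1, 2 or 4, ZT13 PBS replicate 3 or ZT13 LPS replicate 1), with log2 values from 0.68 to 0.90 over the 16 fits and adjusted p from 0.015 to 0.15. It was lost with no filter on low values (adjusted p = 0.14), after quantile normalization (0.053), without limma's intensity trend (0.14) and relative to endothelial markers (0.11).

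**Figure D3:**
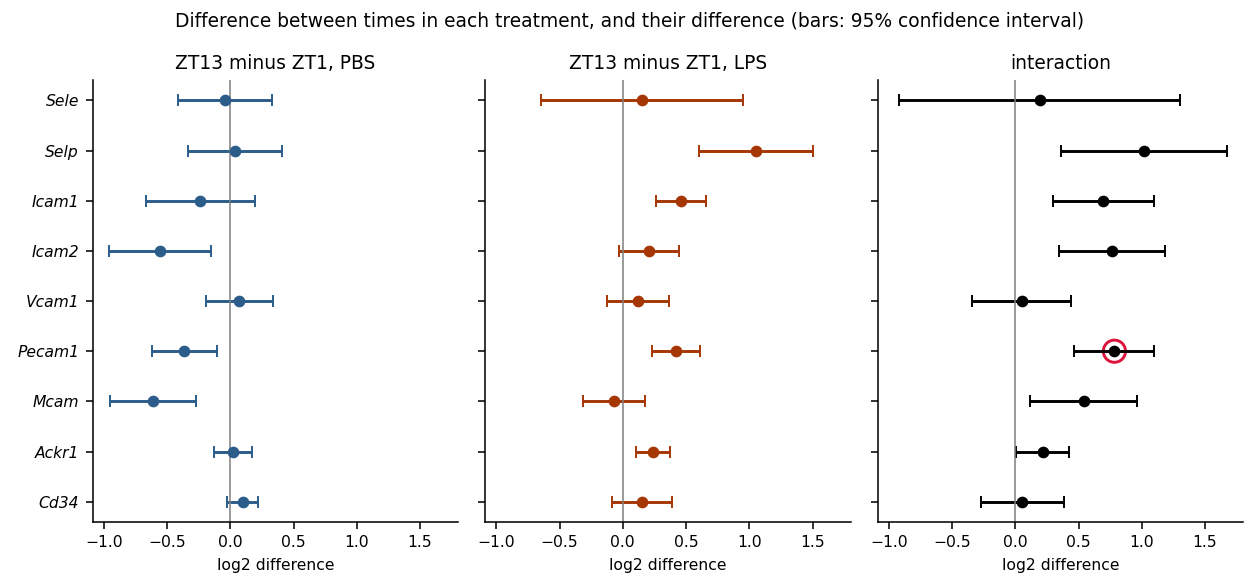
Log2 difference ZT13 minus ZT1 in PBS mice and in LPS mice, and the interaction (the second minus the first), with 95% confidence intervals; a red ring marks an adjusted p under 0.05. Pecam1 alone is ringed, in the interaction, with PBS and LPS differences of opposite sign.

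Other endothelial genes moved with these members. Of 15 endothelial markers, none of them among the 9, 11 were called higher and 1 lower at ZT1, and 13 higher at ZT13. At ZT1 the number higher was 7 without PBS replicate 1 or 3, and 5 without the filter on low values. The markers summed to 310 to 313 CPM in ZT1 PBS, 403 to 517 CPM in ZT1 LPS, 273 to 329 CPM in ZT13 PBS and 496 to 540 CPM in ZT13 LPS mice. The interaction was called upward for 5 of the 15: Cldn5 (1.36, adjusted p = 0.013), a tight junction protein, Cdh5 (0.67, adjusted p = 0.036), the adherens junction cadherin, the VEGF receptors Kdr (1.39, adjusted p = 0.013) and Flt1 (0.56, adjusted p = 0.044), and Egfl7 (0.69, adjusted p = 0.041). That count was close to the threshold as well: it ran from 0 to 6 over the 16 fits that each dropped a mouse (0 without ZT1 PBS replicate 1 or ZT13 PBS replicate 2), and was 0 without the filter on low values or the intensity trend. At an unadjusted p under 0.05 limma had the interaction higher for 7 of the 15, against 5.93% of all genes, and lower for 4. The endothelial markers therefore did not all move the same way between the times. Between the PBS groups, 1 of the 15 was called higher and 3 lower at ZT13, so these interactions are not only larger rises after LPS. Cldn5 was at 26.7 to 29.7 CPM in ZT1 PBS and 10.4 to 15.5 CPM in ZT13 PBS mice, and Kdr at 14.8 to 16.7 and 6.61 to 8.02 CPM. Flt1 was lower in ZT1 LPS mice (44.9 to 53.0 CPM) than in ZT1 PBS mice (59.4 to 62.6 CPM). The part of the shared movements of endothelial genes in the Pecam1 result was not tested beyond scaling to the sum.

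Scaled to the summed endothelial markers in each mouse, the median of all genes shifted to -0.48 at ZT1 and -0.69 at ZT13, and against that shift the 9 separated. On that scale limma called 13746 of 18859 genes lower at ZT1 and 15691 at ZT13, and 723 and 832 higher. Selp kept log2 differences of 2.93 and 3.76, Icam1 2.48 and 2.97, and Sele 1.52 and 1.58, each called at both times. Pecam1 was at 0.90 and 1.46, Vcam1 at 0.96 and 0.78, and Ackr1 at 0.33 and 0.32, also called by limma (the highest adjusted p = 0.015, Ackr1 at ZT1). Icam2 was called at ZT13 (0.99, adjusted p = 3.5e-05) but not at ZT1 (0.36, adjusted p = 0.056).

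On that scale Cd34 and Mcam behaved otherwise. Cd34 was at 0.05 (adjusted p = 0.69) at ZT1 and -0.13 (adjusted p = 0.17) at ZT13, so its rise had the size of that of the marker sum. As a share of the sum it was 12.8 ± 0.56% in ZT1 PBS, 13.4 ± 1.84% in ZT1 LPS, 14.4 ± 1.87% in ZT13 PBS and 13.2 ± 0.79% in ZT13 LPS mice (SD). Mcam was lower at both times, at -0.86 (adjusted p = 2.3e-05) and -0.53 (adjusted p = 0.0029), which at ZT13 turned the sign of its unscaled value. Most genes were called lower on that scale. The Mcam value was below the median of all genes at ZT1 (-0.48) and above it at ZT13 (-0.69). Icam1, by contrast, went from 0.590 ± 0.13% to 3.87 ± 0.80% of the sum at ZT1 and from 0.504 ± 0.15% to 4.69 ± 0.42% at ZT13.

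**Figure D4:**
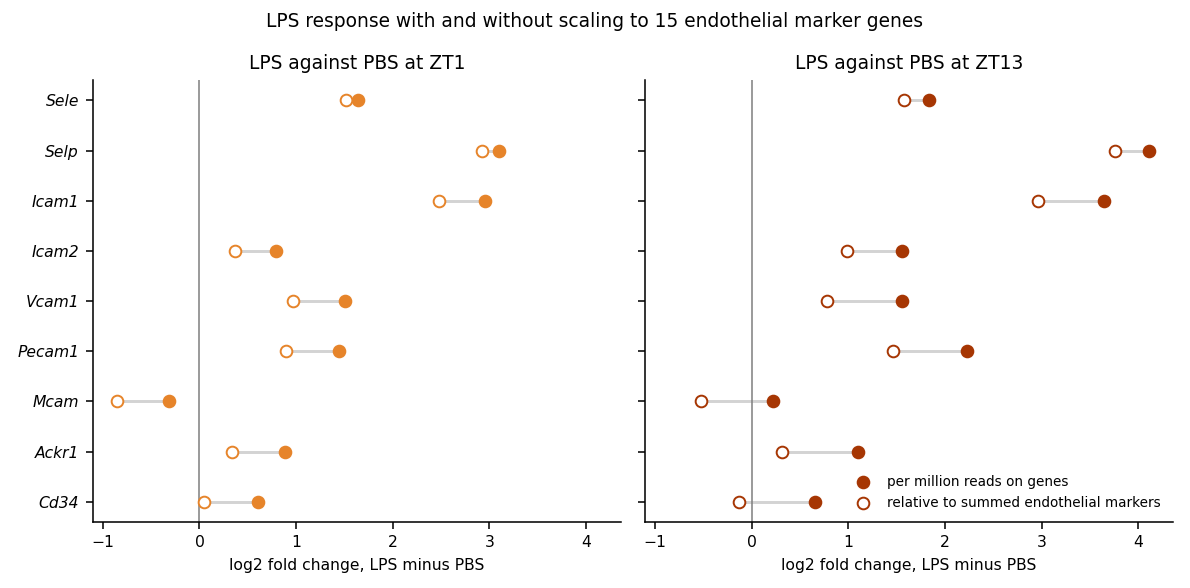
Log2 difference between LPS and PBS mice on the CPM scale (filled) and relative to the sum of 15 endothelial markers (open), at ZT1 and ZT13. The open points of Selp, Icam1 and Sele stay far above 0, those of Cd34 lie near 0 and those of Mcam below it.

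Venous and arterial markers were counted too. Of 4 venous markers 2 were called higher at ZT1 and 3 at ZT13, led by Vwf, which encodes von Willebrand factor (1.75 and 1.93). Of 6 arterial markers 1 was called higher and 2 lower at each time, and 1 lower at each time with the filter at 5 CPM. Gkn3 reached 1 CPM only in PBS mice and Bmx only in LPS mice, so each entered the test only through those groups. The venous count at ZT1 was 1 without any 1 of the 3 ZT1 PBS mice or of ZT1 LPS replicates 1, 3 and 4, and the arterial count higher was 2 without ZT1 LPS replicate 2. The difference between the sets was not tested.

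Blood leukocyte markers rose beside the adhesion genes. The 8 neutrophil markers summed to 4.55 to 4.98 CPM in ZT1 PBS, 14.1 to 73.0 CPM in ZT1 LPS, 3.61 to 4.75 CPM in ZT13 PBS and 47.7 to 122 CPM in ZT13 LPS mice, and 4 of 6 tested were called higher at ZT1 and 6 of 6 at ZT13. The defining genes S100a8 and S100a9 reached 18.6 and 47.3 CPM. Of the 8 markers only Csf3r reached 1 CPM in any PBS mouse, so all others that were tested entered the test only through the LPS groups. Leukocytes carry Pecam1 too, and the part of their RNA in the Pecam1 result was not tested. In the ZT1 LPS group the mice stood in the same order by neutrophil sum and by Pecam1, replicates 1, 4, 3, 5 and 2 from highest to lowest, and in the ZT13 LPS group they did not. The 8 lymphocyte markers summed to 0.345 to 0.547 CPM in ZT1 PBS and 0.582 to 1.35 CPM in ZT1 LPS mice. At ZT13 they summed to 0.185 to 0.455 CPM in PBS and 0.664 to 2.24 CPM in LPS mice. The sums were thus low but higher in every LPS mouse than in every PBS mouse of the same time. None of these markers passed the filter on low values, and the defining markers Cd3e and Cd3d were at most 0.606 and 0.0839 CPM.

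**Figure D5:**
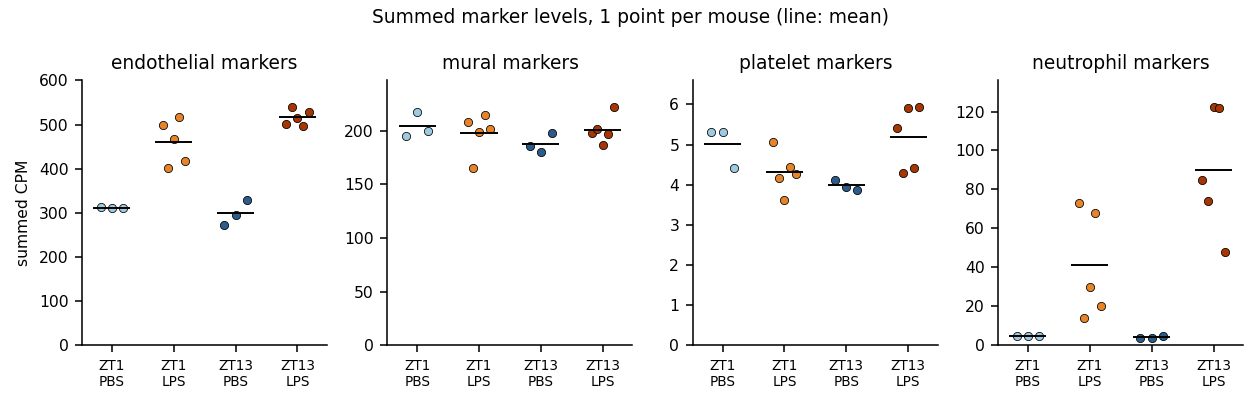
Summed CPM of endothelial, mural, platelet and neutrophil markers in every mouse, with group means as lines. Endothelial and neutrophil sums are higher in all LPS mice than in all PBS mice of the same time, mural sums overlap between LPS and PBS at both times, and platelet sums lie between 3.63 and 5.94 CPM throughout.

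The partners of the adhesion molecules on leukocytes were counted as well, beside 5.15% of all genes called lower at ZT1 and 9.4% at ZT13. Of 12 counter-receptors, 9 were called higher at ZT1 and 10 at ZT13, and none lower. Among the largest changes at ZT13 were those of Itgal, the alpha chain of LFA-1 (log2 difference 1.86 at ZT1 and 2.93 at ZT13), and Itgb2, its beta chain (2.12 and 2.76). Without ZT1 PBS replicate 2, or without the filter on low values, 5 were called at ZT1. The median over the list was 0.86 at ZT1 and 1.90 at ZT13.

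Enzymes that build selectin ligands changed in part. Of the 8 tested, 3 were called higher at ZT1, and 4 higher and 1 lower at ZT13. Gcnt1, which starts the branched O-glycans that carry such ligands, was at 1.22 and 1.85, the galactosyltransferase B4galt1 at 1.24 and 1.62, and the sulfotransferase Chst2 at 0.32 and 0.36. St3gal3, a sialyltransferase, was lower at ZT13 (-0.14, adjusted p = 0.044), and that call was lost when any 1 of 6 mice was dropped.

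Of 12 tested among the other endothelial trafficking molecules, 5 were called higher and 1 lower at ZT1, and 6 higher and 3 lower at ZT13. Emcn, the endothelial sialomucin endomucin, was at 0.90 and 1.66, the junction molecule F11r (JAM-A) at 1.18 and 1.29, and Esam, another junction molecule, at 0.69 and 1.06. Jam2 (-0.13 and -0.33) and Cd99l2 (-0.20 and -0.19) were the lower ones by the naming rule. Leaving out ZT1 PBS replicate 1 or 3 left 3 called higher at ZT1, and the single ZT1 call downward was lost without any 1 of the ZT1 PBS mice or ZT1 LPS replicate 3. At ZT13, without PBS replicate 2, the number lower was 1.

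The cytoskeletal anchors of these receptors and the signals that switch them on were also counted. Of 8 anchors, 4 were called higher at ZT1 (2 without ZT1 PBS replicate 1) and 5 at ZT13, with none lower: Msn (moesin) was at 2.01 and 2.81, Flna at 0.62 and 0.93, and Ezr at 0.59 and 0.60. Of 13 tested NF-kappaB and cytokine genes, 11 were called higher at ZT1 and 13 at ZT13, with the TNF receptors Tnfrsf1b (1.52 and 2.12) and Tnfrsf1a (1.19 and 1.80) and the cytokine gene Il1b (1.25 and 2.08) named first. Of 8 chemokines that ACKR1 binds, 2 could be tested and both were called at each time: Ccl5 at 5.77 and 5.59 and Cxcl1 at 2.22 and 2.71. Ccl5, Cxcl1 and Il1b were under 1 CPM in every PBS mouse, so they entered the test only through the LPS groups. No pathway list had a gene called for the interaction. Scaled to the endothelial sum, genes of these lists were called lower too, up to 7 of the trafficking molecules at ZT1 and 6 at ZT13, 4 and 6 of the selectin ligand enzymes, 5 and 5 of the anchors, 2 and 4 of the counter-receptors and 1 and 2 of the NF-kappaB and cytokine genes. Of all 18859 genes, 13746 were called lower at ZT1 and 15691 at ZT13 on that scale.

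The genes nearest to each member, up to 3 of them, by root mean square difference of z-scored levels over the 16 mice, give a picture of shared profiles. Pecam1 was nearest to Rhoc (0.109), Col4a1 (0.136) and Cotl1 (0.141), and Icam1 to the acute-phase genes Lcn2 (0.142) and Cp (0.144), with Stra6 between them. Vcam1 was near Marco (0.170) and Ctsc (0.172), Ackr1 to Pdk2, Stra6 and Adam15 (0.165 to 0.184), and Selp to AI506816, Rpl3 and Cd151 (0.171 to 0.178). Icam2 came nearest to Upp1, Esam and Bag3 (0.221 to 0.247), Cd34 to Adgrl4, F13a1 and Cd84 (0.288 to 0.301), and Sele to Adamts1, Dapk1 and Adamts9 (0.380 to 0.392). Mcam had no close match, since its nearest genes (Gm37967, Gm13882 and Fgf10) were 0.611 or more away.

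Mice of a group did not rank alike across the 9 genes. ZT1 LPS replicate 2 was lowest of its group for Selp, Icam2, Vcam1, Pecam1, Mcam and Cd34 but highest for Sele, Icam1 and Ackr1, and it had the lowest endothelial sum of the group (403 CPM). In the ZT13 LPS group replicate 5 was highest for 6 genes, and replicate 1 was lowest for 4.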

How the data were processed

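RNA was extracted from mouse cortex and libraries were made from rRNA-depleted total RNA. The submitters' processing notes name bcl2fastq, DRAGEN 4.0.3-8 and GRCm38, and the counting tool and its use of strand are not given in the sources used here. The authors deposited 1 table of CPM values per gene and sample, each column summing to 1000000, and the library totals of 20251840 to 29112758 reads were read from the smallest steps of these values. Of values up to 20 reads, 80.7 to 82.4% were whole reads, within 0.01 read, so counts were not recovered and no count model was run. The table held 55774 lines, of which 287 repeated a gene, leaving 55487 genes.

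Groups came from the sample titles, whose AM and PM were read as ZT1 and ZT13. The treatment field of the labels goes against the titles in 12 of 16 samples, and it was tried as an alternative. Titles number the samples, and same-numbered samples of different groups did not deviate together (correlations -0.20 to 0.33), so they were not paired. Nothing in the labels says how the mice were housed.

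Genes at 1 CPM or more in at least 3 of 16 samples (18859 genes) were tested on log2(CPM + 0.5) with limma 3.58.1 (R 4.3.3, intensity trend, each comparison fitted on its own groups, the interaction on all 4), with Benjamini-Hochberg adjustment over all genes tested and a threshold of 0.05. This scale understates changes of low genes. A fold against a group under 3 reads per library is given as a lower bound. All tests were two-sided. The remaining work used Python 3.11.15, scipy 1.17.1 and matplotlib 3.10.9, and the fits were tested on simulated data. Gene positions are from GENCODE for GRCm38.

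The 9 members and the gene lists were chosen with earlier results of these data known. All 9 are described. From each pathway list were named up to 3 genes with the largest and 2 with the smallest log2 difference among those called, and 1 gene of the lists and 1 of the nearest genes are not reported here. Marker lists are given by their sums and first genes. Markers beyond these were named after their values were seen. Alternatives were pseudocounts of 0.1 and 1, no filter or 5 CPM, median-of-ratios and quantile scaling, scaling to endothelial markers, a single fit, sample weights, no trend, a replicate block, the labels' treatment field, and each mouse dropped in turn.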

Additional observations from a re-analysis of the deposited data

Results flagged for a closer look

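In 4 of 46 groups of 5 mice 1 mouse stood apart from the rest by Dixon's criterion, which chance alone gives in about 1 of 20 groups. Icam2 was at 2.01 CPM in ZT1 LPS replicate 2, below the next mouse at 2.57 CPM. Ackr1 was at 41.7 CPM in ZT1 LPS replicate 3, below the next at 47.2 CPM. Sele was at 3.40 CPM in ZT13 LPS replicate 5, above the next at 1.30 CPM. The summed meningeal fibroblast markers reached 283 CPM in ZT1 LPS replicate 1, where the next mouse had 236 CPM.

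The Pecam1 response to LPS was called different between ZT13 and ZT1, by 0.78 on the log2 scale (limma interaction, adjusted p = 0.041). The call was close to the threshold and passed in 5 of 16 fits that each left out a mouse. Endothelial markers had 5 of 15 genes called in the same direction, a count that ran from 0 to 6 over the same 16 fits. At an unadjusted p under 0.05 limma had 7 of the 15 in that direction and 4 in the other.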

How the results depend on the processing

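With the treatment field of the labels in place of the titles, limma called 0 members at either time and 0 for the interaction, and 2 between the PBS groups. The signs then turned. At ZT1 the values were -0.77 (Sele), -1.90 (Selp), -1.62 (Icam1), -0.61 (Icam2), -0.94 (Vcam1), -0.97 (Pecam1), -0.48 (Ackr1) and -0.60 (Cd34). At ZT13 they were -1.59 (Sele), -2.85 (Selp), -2.20 (Icam1), -1.04 (Icam2), -0.95 (Vcam1), -1.38 (Pecam1), -0.70 (Ackr1) and -0.44 (Cd34). Pecam1 was at 0.38 between the PBS groups and -0.41 in the interaction. That alternative moves samples between groups. Relative to endothelial markers, Mcam (-0.53) and Cd34 (-0.13) turned sign at ZT13.

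Between the LPS groups, 2 members were called in a single fit and 3 with sample weights, beside 122 and 225 of all 18859 genes. The interaction count of 1 fell to 0 with no filter, with quantile scaling, relative to endothelial markers, with no trend and in the replicate block. The cause was not tested, except that no filter raises the number of genes tested. Leaving out 1 mouse gave 7 to 9 members called at ZT1, 8 to 8 at ZT13, 0 to 3 between the LPS groups, 0 to 1 between the PBS groups and 0 to 1 for the interaction.

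A replicate block on the title numbers, which were not found to pair the mice, gave 9 members at ZT1, Mcam being added as lower (-0.44, adjusted p = 0.031), 8 at ZT13, 0 in each comparison between times (choroid plexus markers had 5 of 6 called lower at ZT13, and platelet markers 0 called) and 0 for the interaction (Pecam1 adjusted p = 0.076). At 5 CPM Sele and Icam2 were not tested, leaving 6 called at each time. With no filter 6 were called at ZT1. Levels under 3 reads per library limit Sele and Selp in PBS mice. Counted per gene and per fit that left out a mouse, 413 results stayed called or not called as before, 6 gained a call and 13 lost one. The losses were in the Pecam1 interaction, which passed in 5 of 16 such fits, and in Cd34 at ZT1, which passed in 6 of 8.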

Other observations

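Whole reads were found, within 0.02 read, in all 16 samples for Sele, Icam2, Vcam1, Pecam1 and Mcam, in 6 for Selp, in 1 for Ackr1 and in 0 for Icam1 and Cd34. The members without whole reads share exon bases with other genes, 624 for Selp, 511 for Icam1, 361 for Ackr1 and 148 for Cd34, but Vcam1 shares 61 and Mcam 17.

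Microglial markers moved in both directions, with 5 of 7 called higher and 2 lower at each time. At ZT1 the number higher was 3 without PBS replicate 1 or 2, 2 without PBS replicate 3 and 1 without the filter on low values, and at ZT13 it was 3 without that filter. Of 7 astrocyte markers 4 were called higher at each time, 2 of them at ZT1 without the filter. Of 7 neuron markers 4 were called lower at ZT13, and 7 with median-of-ratios scaling. Of 7 meningeal fibroblast markers 4 were called higher and 1 lower at ZT13. Relative to endothelial markers, these lists had 0 to 1 genes called higher and 5 to 7 lower at ZT13, where 15691 of all 18859 genes were called lower.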
